A study of Mus musculus with 696 samples.

Results

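Flg, Flg2, Rptn, Asprv1 and Crct1 are 5 genes of the last living layer of the epidermis, chosen by name out of the 15652 genes of a single-cell RNA-seq table from mouse tail skin. All 5 were in the table, and all 5 passed the filter on low counts and were among the 13853 genes tested. The cells were keratinocytes descended from Lrig1+ stem cells, which sit at the junctional zone of the upper hair follicle. The study's question was whether these progeny remember an earlier injury when the skin is injured again.

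The mice were females of a CBA C57BL/6 mixed strain that carried Lrig1-EGFP-ires-CreERT2 together with the reporter Rosa26-fl/STOP/fl-tdTomato, and hydroxytamoxifen had been put once on the tail skin of every group, the unwounded controls included, when the animals were young adults. From then on, cells that expressed Lrig1 at labelling, and all their descendants, carried tdTomato. There were 4 time points: unwounded skin (0w), week 1 of healing of a full-thickness punch wound (1w pw1), the same wound at week 8 (8w pw1), and week 1 of healing of a second wound that overlapped the first (1w pw2, week 9 in the labels). Mice were therefore older at later time points, and each time point has a replicate letter of its own in the labels, so time, age and that letter cannot be told apart. The sorted tissue held the wound bed together with follicles at a distance from it. Each time point has 2 plates of single cells, numbered replicate 1 and replicate 2, with 79 to 91 cells per plate and 696 cells in all. The study's methods describe 2 independent experiments of 4 biological replicates each, but the labels tie no plate to an experiment or an animal, so p-values here measure only the spread between plates.

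In the epidermis, basal cells leave the underlying membrane, pass through a spinous layer and reach the granular layer, where they fill with keratohyalin before they die and flatten into the cornified layer. Filaggrin (Flg) is made as a giant precursor of keratohyalin that is cut into repeats which bundle keratins, and Flg2 is its close relative. Both belong to the S100 fused-type proteins, as does repetin (Rptn), an envelope precursor with glutamine-rich repeats that transglutaminases can cross-link. Asprv1 encodes a retroviral-like aspartic protease that helps to process profilaggrin, and Crct1 is a small cysteine-rich gene of the epidermal differentiation complex. Upper hair follicles cornify too: the infundibulum and the ducts of the sebaceous glands have granular and cornified cells of their own.

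Of the genes, 4 lie together in the epidermal differentiation complex on chromosome 3, within 385 kb of the GRCm38 assembly. Flg (ENSMUSG00000102439) is at chr3:93273523-93293686 on the plus strand, Flg2 (ENSMUSG00000049133) at chr3:93197278-93221391 and Rptn (ENSMUSG00000041984) at chr3:93393699-93399442 on the same strand, and Crct1 (ENSMUSG00000027913) at chr3:93014205-93015687 on the minus strand. Asprv1 (ENSMUSG00000033508) is alone on chromosome 6, at chr6:86628164-86629710 on the plus strand. Exons cover 18829 bases in Flg and 20803 in Flg2, but 4146 in Rptn, 1547 in Asprv1 and 792 in Crct1, so whole-transcript reads give both filaggrins more counts for the same number of molecules. The annotation places an antisense lincRNA, Gm37245, across Rptn, another transcript, Gm37857, over its start, and a pseudogene, Rplp0-ps1, within Flg. The libraries do not mark strand, so reads of Rptn and of Gm37245 cannot be told apart where their exons overlap.

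RefSeq promoters of GRCm38.p6, running from 250 bases before the start to 50 after it, were given for 4 of the 5 genes (Flg, Flg2, Rptn and Asprv1). The letters TGANTCA, which read the same on both strands and include the 2 classic sites of AP-1 factors when N is C or G, were searched after these sequences had been looked at, and no other motif was searched. They occur in the promoters of Flg, Flg2 and Rptn, where N is A or T, and not in that of Asprv1. The 37 bases around the match are printed for these 3 genes because they are the S100 fused-type genes among the 5, and they lie close together on the chromosome. Capitals mark the match, which starts 103 bases before the start of Flg, 69 before that of Flg2 and 96 before that of Rptn, on the plus strand at chr3:93273431-93273467, chr3:93197192-93197228 and chr3:93393591-93393627.
Flg: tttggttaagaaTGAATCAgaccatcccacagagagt
Flg2: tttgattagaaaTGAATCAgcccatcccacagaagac
Rptn: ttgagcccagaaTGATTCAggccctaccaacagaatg
The windows of Flg and Flg2 share 29 of 37 positions (78.4%), against 21 (56.8%) for Flg and Rptn and 18 (48.6%) for Flg2 and Rptn. All windows were aligned on the match, so its fixed letters are identical by construction. Over all genes with a promoter of that length 8.97% hold the letters. Among the 7 S100 fused-type genes 5 do, 3 of which are the genes whose sequences led to the choice of the motif, the others being Tchhl1 and Crnn. The window of Tchhl1 shares 23 positions (62.2%) with that of Flg and 20 (54.1%) with that of Flg2. For Crnn these were 18 (48.6%) and 14 (37.8%). The letters are in 3 of 10 cornified envelope genes, 3 of 10 spinous layer genes, 2 of 9 filaggrin processing genes, 1 of 9 transcription factors of late differentiation, 1 of 16 barrier lipid genes and 0 of 20 late cornified envelope genes. A match of letters is a description of the sequence and shows no binding.

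Total counts per plate ran from 12293182 to 19760820, with a median of 132595 counts and 4470 genes per cell. The label of keratinocytes held: Krt14 had a count in 89.7% of the 600 cells without any of the 5 genes, against 3.8% for Ptprc of leukocytes and 4.2% for Dcn of fibroblasts. Pecam1, used as an endothelial marker, had counts in 98.8% of them, but Kdr, another endothelial gene, in 0.3%. The median mitochondrial share per cell was highest on the replicate 2 plate of 0w, at 30.7%, and lowest on the plates of 1w pw2, at 14.3% and 13.0%, and a stricter cell filter that bounds it was among the alternatives. In summed cells, fewer cells of a type and less RNA per cell cannot be told apart.

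Flg had 484 and 20 counts on the plates of 0w, 2025 and 77 at 1w pw1, 13 and 130 at 8w pw1, and 6340 and 20 at 1w pw2. Scaled to 1000000 counts of the plate (CPM, with TMM factors for composition), these were levels of 25.1 and 1.08, 132 and 4.51, 0.935 and 8.48, and 444 and 1.08. Replicate plates thus stood far apart at every time point, and no 2 time points were separated. The largest Flg difference was that of 1w pw2 against 8w pw1, 5.56 on the log2 scale (SE 2.44, unadjusted p = 0.0461, adjusted p = 0.622, edgeR quasi-likelihood test), and it was -2.13 without the replicate 1 plate of 1w pw2.

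Flg2 was found on the replicate 1 plates alone: 1444 counts at 0w, 374 at 1w pw1, and 4 at 8w pw1. It had 0 on the replicate 2 plates of all 3 time points. At 1w pw2 both plates had 0 counts. In CPM the 3 plates with counts stood at 74.9, 24.4 and 0.288. A single cell gave 90.3% of the counts of 0w and another 98.9% of those of 1w pw1, and no fold against 1w pw2 is given. Without the replicate 1 plate of 0w, both 0w and 1w pw2 were at 0.

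Rptn, the envelope precursor, was found on 7 of the 8 plates. Its counts were 3991 and 0 at 0w, 5094 and 86 at 1w pw1, 112 and 2 at 8w pw1, and 2099 and 2317 at 1w pw2, or levels of 207 and 0, 333 and 5.04, 8.06 and 0.13, and 147 and 125 CPM. The 2 plates of 1w pw2 were close to each other, unlike those of the other time points, and both lay above both plates of 8w pw1. That difference was 5.06 on the log2 scale (SE 2.61, adjusted p = 0.666, edgeR).

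Asprv1, the protease gene, was detected on all 8 plates: 245 and 4 counts at 0w, 278 and 90 at 1w pw1, 258 and 16 at 8w pw1, and 431 and 1597 at 1w pw2. The levels were 12.7 and 0.216, 18.2 and 5.27, 18.6 and 1.04, and 30.2 and 86.1 CPM. Both plates of 1w pw2 were above the 6 others, whereas the plates of the other 3 time points overlapped. Against 0w the difference was 3.17 on the log2 scale (SE 1.59, unadjusted p = 0.0737, adjusted p = 0.454, edgeR); it was 2.31 against 1w pw1 (adjusted p = 0.802) and 2.57 against 8w pw1 (adjusted p = 0.722). When every cell was given the same weight in the sum, the difference from 0w was 0.71.

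Crct1 had 510 and 0 counts at 0w, 464 and 16 at 1w pw1, 58 and 4 at 8w pw1, and 153 and 13 at 1w pw2. Its levels were 26.5 and 0, 30.3 and 0.937, 4.17 and 0.261, and 10.7 and 0.701 CPM, so that the replicate 1 plate was the higher at each time point and the time points overlapped.

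**Figure D1:**
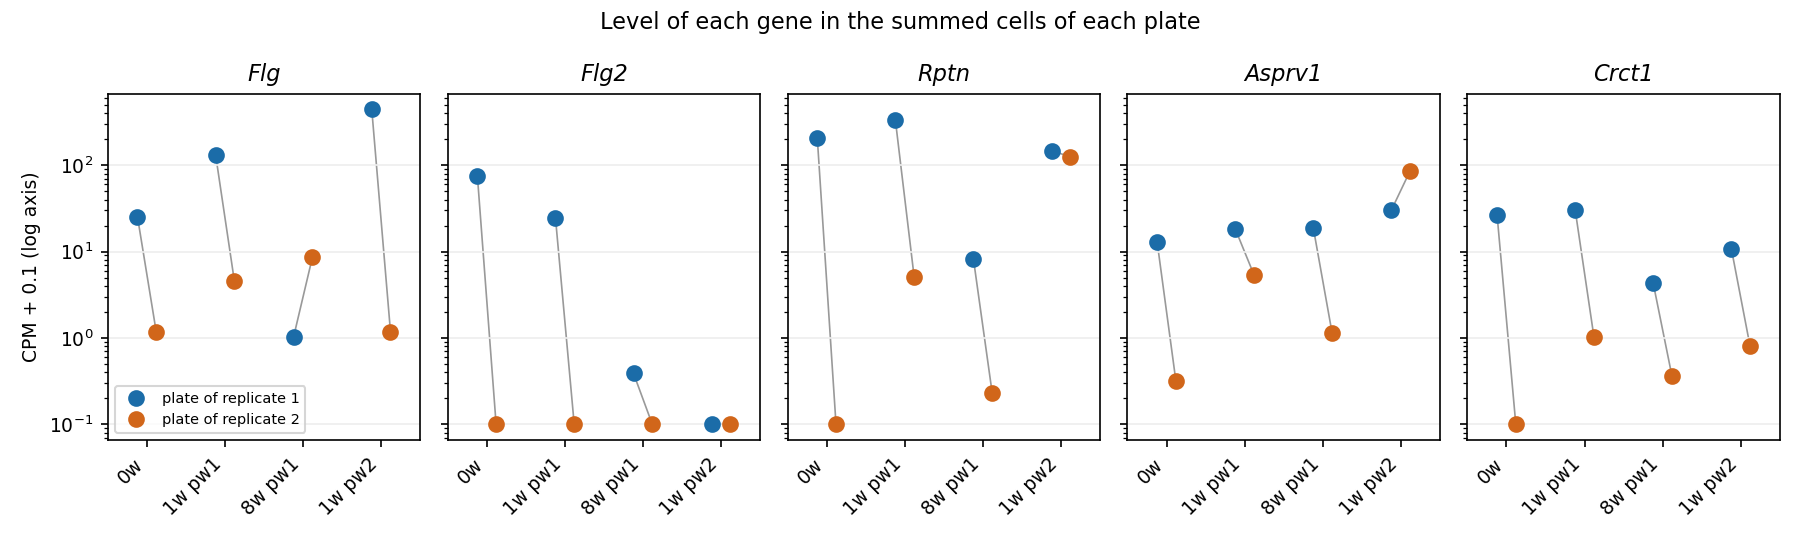
Level of each gene in the summed cells of each plate, in CPM with 0.1 added, on a log axis; blue points are replicate 1 plates, orange points replicate 2 plates, and grey lines join the 2 plates of a time point. The lines are long for every gene at 0w and for all but Asprv1 at 1w pw1. The Rptn plates lie close only at 1w pw2 (147 and 125 CPM), where both Flg2 plates are at 0. Only the Asprv1 points of 1w pw2 (30.2 and 86.1 CPM) lie above all other plates of their panel.

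Compared per kilobase of exon, in CPM of the plate total without TMM factors, the mean level over the 8 plates was 24.5 for Rptn, 14.3 for Asprv1, 11.6 for Crct1, 4.26 for Flg and 0.642 for Flg2. The ranges over plates overlapped between neighbours in that order: 0 to 64.9 for Rptn, 0.139 to 56.4 for Asprv1, 0 to 38.7 for Crct1, 0.0562 to 26.0 for Flg and 0 to 4.17 for Flg2.

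None of the 5 genes was called at any comparison by the edgeR test, which took an adjusted p below 0.05 and a change of more than 2-fold. Of the 35 tests (5 genes, 7 comparisons), 4 had an unadjusted p below 0.05, of which 3 were of Flg2. For 1w pw1 against 0w, 0.527% of all genes tested were called, 0.404% being higher and 0.123% lower, and an unadjusted p below 0.05 was found for 11.5%. The differences of the 5 genes were 2.38 for Flg (SE 2.11, adjusted p = 0.745), -1.62 for Flg2, 0.71 for Rptn, 0.86 for Asprv1 and 0.24 for Crct1 on the log2 scale, with adjusted p up to 0.992. Each of the 5 changed sign when a replicate 1 plate was left out: Flg, Rptn, Asprv1 and Crct1 were below 0 without that of 1w pw1, and Flg2 was above 0 without that of 0w. For 8w pw1 against 0w, where 0% of genes were called and 6.47% had an unadjusted p below 0.05, they were -1.47 for Flg, -7.99 for Flg2 (unadjusted p = 0.0401, adjusted p = 0.739), -4.66 for Rptn (adjusted p = 0.799), 0.60 for Asprv1 and -2.58 for Crct1. Each of these also changed sign when a plate was left out (Flg, Flg2, Rptn and Crct1 without the replicate 1 plate of 0w, Asprv1 without either the replicate 2 plate of 0w or the replicate 1 plate of 8w pw1), and with the replicate block Flg was at 1.88. For 1w pw2 against 0w, with 0.267% of genes called (0.238% higher and 0.0289% lower) and 12.6% at an unadjusted p below 0.05, Flg differed by 4.08 (SE 2.27, adjusted p = 0.508, and -3.59 without the replicate 1 plate of 1w pw2), Rptn by 0.39 and Crct1 by -1.22 (0.11 with the replicate block). The Flg2 difference had an unadjusted p of 0.0219 and an adjusted p of 0.308. With the replicate number as a block, however, Flg2 was called (adjusted p = 0.0406, edgeR, with 0.693% of all genes called), as it was by DESeq2 (adjusted p = 1.9e-05, with 4.97%), while no other gene of the 5 was called by either.

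Between the later time points, 0.115% of genes were called for 8w pw1 against 1w pw1 (0.0433% higher and 0.0722% lower), 0% for 1w pw2 against 1w pw1 and 0.00722% for 1w pw2 against 8w pw1, while 11.1%, 6.01% and 7.94% had an unadjusted p below 0.05. From 1w pw1 to 8w pw1 the 5 log2 differences were all below 0: -3.86 for Flg, -6.37 for Flg2, -5.37 for Rptn (SE 2.65, adjusted p = 0.492), -0.26 for Asprv1 and -2.82 for Crct1. Without the replicate 1 plate of 1w pw1, however, those of Flg, Flg2, Asprv1 and Crct1 were above 0, and without the richest cell of each plate that of Rptn was 4.02. From 1w pw1 to 1w pw2, the 2 healing time points, Flg differed by 1.70, Rptn by -0.31 and Crct1 by -1.46 (adjusted p = 0.894, 0.985 and 0.911, edgeR; Rptn was at 3.48 with the replicate block, Flg at -6.00 without the replicate 1 plate of 1w pw2 and Crct1 at 2.58 without that of 1w pw1), while Flg2, at 0 counts in 1w pw2, had an unadjusted p of 0.0379 and an adjusted p of 0.781. DESeq2 called Flg2 in 1w pw2 against 1w pw1 (adjusted p = 0.00106, with 0.296% of all genes called by DESeq2) and against 8w pw1 (adjusted p = 0.0228, with 2.03%), the latter against a plate sum of 4 counts. The difference between the healings, which sets 1w pw2 minus 8w pw1 against 1w pw1 minus 0w, was 3.17 for Flg (SE 2.92), 4.35 for Rptn (SE 3.25), 1.71 for Asprv1 (SE 2.09) and 1.12 for Crct1 (SE 2.98), with adjusted p between 0.981 and 1. All 4 were below 0 without the replicate 1 plate of 0w, and Flg was at -0.87 with the replicate block. For it 0% of genes were called and 5.34% had an unadjusted p below 0.05.

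Edge to edge, the plates of 1 of the 5 genes (Asprv1) did not overlap between 1w pw2 and 0w, against 40.9% of all genes tested. It was 1 of 5 (Asprv1) against 37.3% for 1w pw2 and 1w pw1, and 2 of 5 (Asprv1 and Rptn) against 33.1% for 1w pw2 and 8w pw1. For 1w pw1 and 8w pw1 against 0w and against each other it was 0 of 5, where 45.1%, 33.4% and 41.8% of genes did not overlap. In none of these comparisons was the share of the 5 genes far above that of all genes.

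The cells show where the plate sums came from. Of 696 cells, 62 had a count of Asprv1 (8.91%, 95% exact binomial interval 6.90 to 11.3%), 29 of Flg (4.17%), 23 of Crct1 (3.30%), 19 of Rptn (2.73%) and 6 of Flg2 (0.862%). At least 1 of the 5 was found in 96 cells (13.8%). Reads were not tagged with molecular identifiers, so such an interval covers the error of counting and no other. Many of these cells held next to nothing: 16 of the 29 Flg-positive cells and 29 of the 62 Asprv1-positive cells had at most 2 counts of the gene.

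Asprv1-positive cells numbered 9 and 3 at 0w, 8 and 8 at 1w pw1, 6 and 4 at 8w pw1, and 14 and 10 at 1w pw2. As shares of the plate this was 10.2% and 3.30%, 8.99% and 10.1%, 7.06% and 4.60%, and 16.3% and 11%. Both 1w pw2 plates were the highest. After each cell was thinned to 20000 counts, with 51 shallower cells left out, 6.02% of cells at 1w pw2 and 4.43% of those at 1w pw1 were positive, and plate shares at 1w pw2 (4.82% and 7.23%) no longer stood above all others.

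Cells with any of the 5 genes made up 12.5% and 8.79% of the 0w plates, 13.5% and 13.9% at 1w pw1, 12.9% and 9.20% at 8w pw1, and 23.3% and 16.5% at 1w pw2. The 2 plates of 1w pw2 were again above all others, at 19.9 ± 4.79% (SD, n = 2) against 10.6 ± 2.62% at 0w. Thinned to 20000 counts the order was less clear, with 8.43% and 9.64% at 1w pw2 and 8.64% on 1 plate of 8w pw1. Under the stricter cell filter (2000 genes or more, mitochondrial share up to 20%, leaving 313 cells) the mean shares were 8.11%, 19.0%, 15.7% and 22.6% in the order of time points, with 9 cells left on the replicate 2 plate of 0w. These shares were not tested. The smallest two-sided p of an exact permutation over 2 plates a group is 0.333, and no model was fitted to the shares.

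Flg-positive cells were 3 and 5, 3 and 3, 3 and 2, and 7 and 3 per plate in the order of time points and replicates. Rptn was in 4 and 0, 1 and 2, 3 and 1, and 3 and 5 cells, and Crct1 in 5 and 0, 5 and 3, 4 and 2, and 1 and 3. Flg2 was in 3 cells of 0w, 2 of 1w pw1, 1 of 8w pw1 and 0 of the 177 cells of 1w pw2. A count of 0 in 177 cells, pooled over both plates, allows up to 2.06% of cells with a count (upper end of the exact two-sided 95% interval, for counting error only). It sets no limit on the share of cells that express the gene. No difference from the other time points was tested, and the 3 cells of 0w were all on 1 plate.

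**Figure D2:**
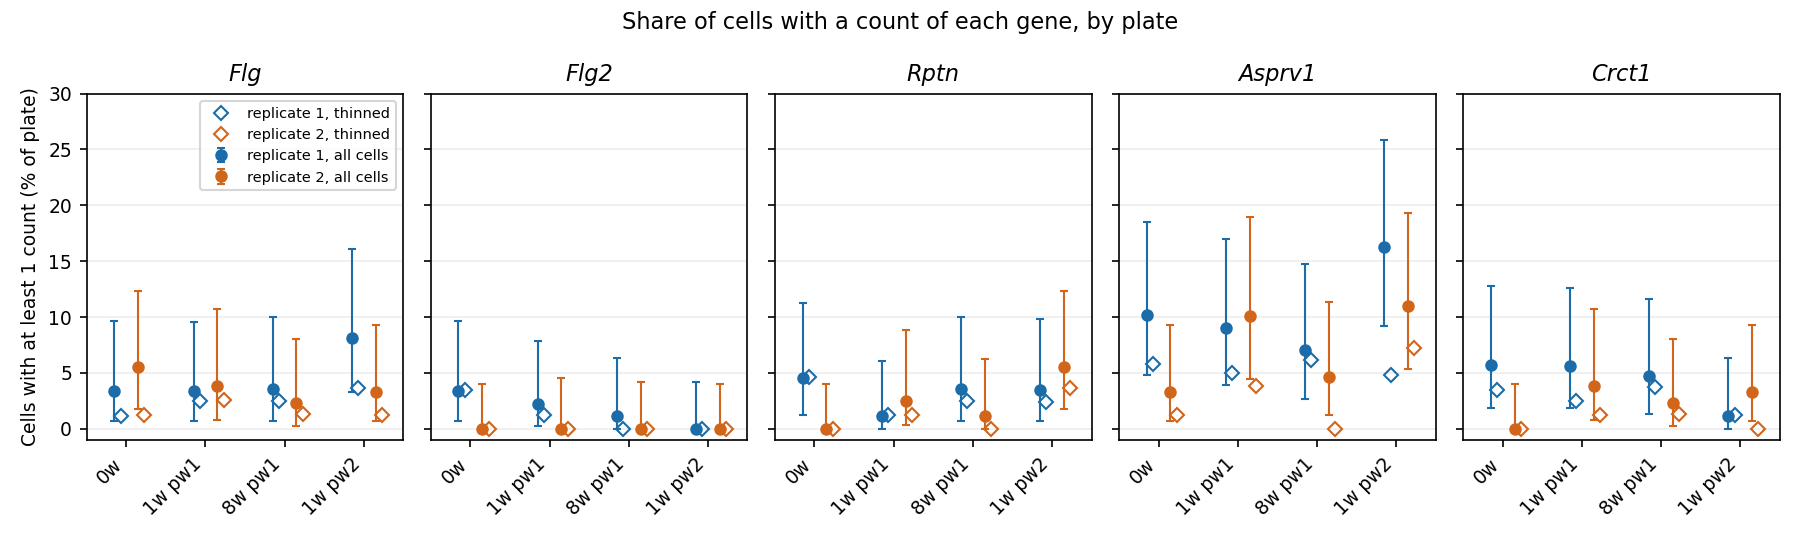
Share of cells with at least 1 count of each gene on each plate, with exact 95% binomial intervals; filled points use all cells and open diamonds the cells thinned to 20000 counts, blue for replicate 1 and orange for replicate 2. Only Asprv1 exceeded 10% on any plate, and its 1w pw2 shares (16.3% and 11%) fell to 4.82% and 7.23% after thinning.

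A handful of cells held most of the counts. For Flg, 1 cell gave 95.6% of the counts of 0w, 1 gave 96.2% of 1w pw1, 1 gave 90.2% of 8w pw1 and 1 gave 99.0% of 1w pw2. The top cell of each time point gave 60.5 to 98.3% of its sum for Crct1 and Rptn except Rptn at 1w pw2 (47.4%), where 3 cells gave 99.2%. Over all time points 3 cells gave 62.7% of the counts of Asprv1, 70.7% of Rptn, 73.0% of Crct1, 96.2% of Flg2 and 96.6% of Flg.

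These were largely the same cells. Counts of 2 or more of the genes were found in 22 cells, of 3 or more in 12 cells, of 4 or more in 7 and of all 5 in 2. The 12 cells with 3 or more genes held 97.4% of all Flg counts, 100% of Flg2, 99.2% of Rptn, 89.1% of Asprv1 and 94.1% of Crct1. The cells were picked for having counts of several genes, so these shares are a description. They lay 4 and 0 on the plates of 0w, 2 and 2 at 1w pw1, 1 and 0 at 8w pw1, and 1 and 2 at 1w pw2. The replicate 2 plate of 0w had none, and the levels of Rptn, Flg2 and Crct1 were all 0 there.

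The 2 cells with all 5 genes were H8 of the 0w replicate 1 plate, with 482 counts of Flg, 1304 of Flg2, 2500 of Rptn, 57 of Asprv1 and 165 of Crct1, and B9 of the 1w pw1 replicate 1 plate, with 2022, 370, 5094, 246 and 412. In well B6 of the 1w pw2 replicate 1 plate a cell had 6296 counts of Flg and 2092 of Rptn, with 352 of Asprv1 and 153 of Crct1 but 0 of Flg2. That cell was therefore rich in filaggrin and without its close relative. Other cells had the reverse: E6 and B8 of the 0w replicate 1 plate had 79 and 61 counts of Flg2, 586 and 901 of Rptn, and 0 of Flg. On the 1w pw2 replicate 2 plate, cells F3 and F1 had 1937 and 352 counts of Rptn and 904 and 573 of Asprv1, the highest Asprv1 counts of any cell, with 0 of both filaggrins and at most 10 of Crct1.

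**Figure D3:**
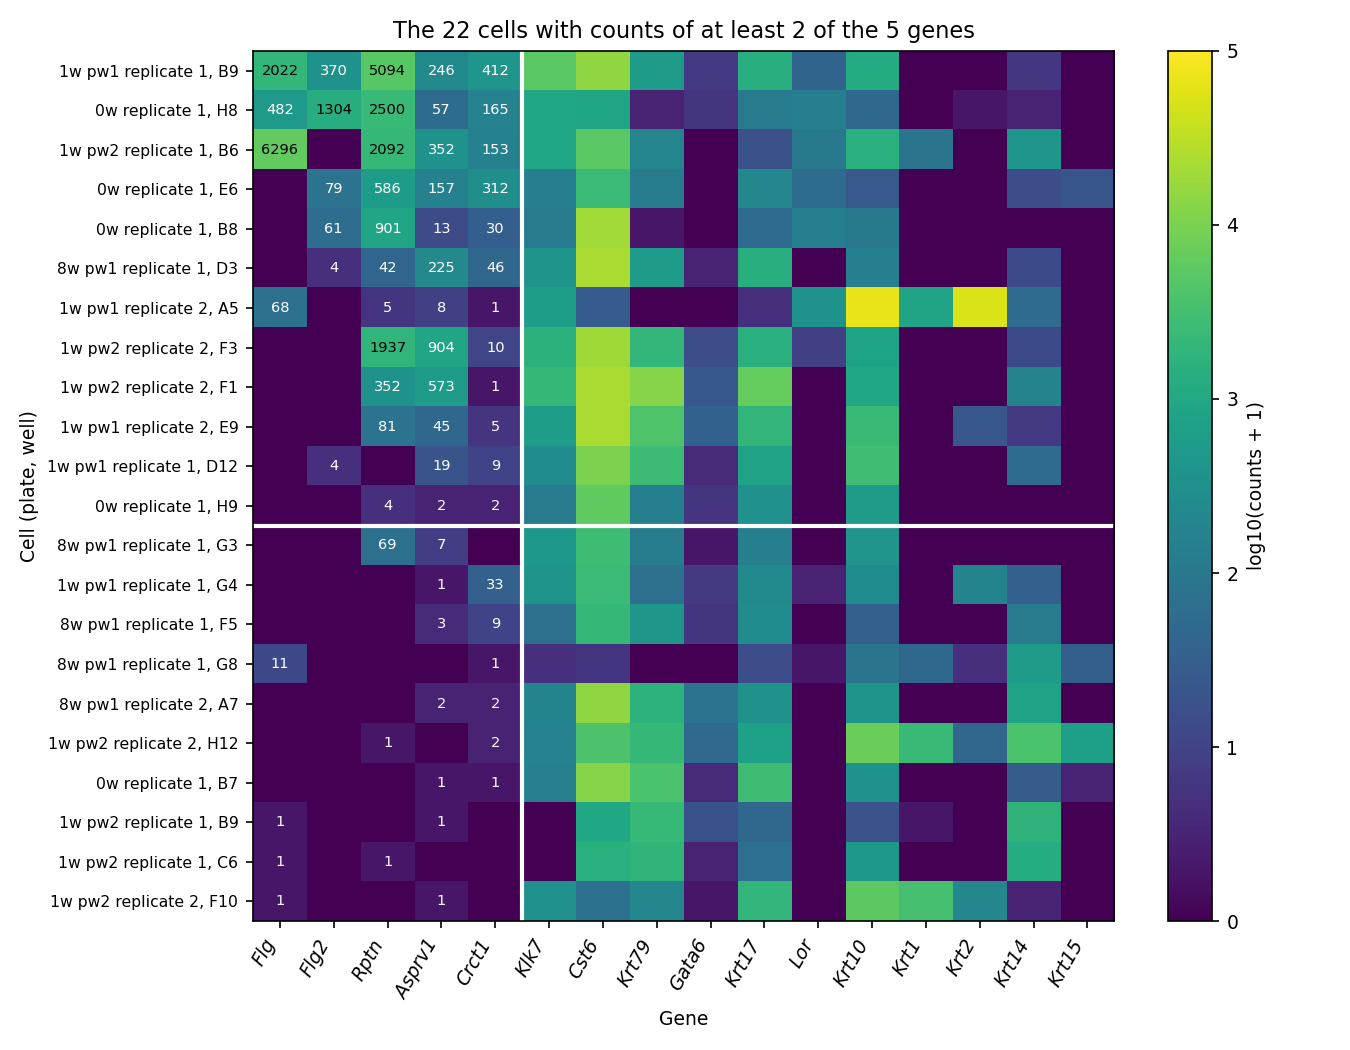
The 22 cells with counts of at least 2 of the 5 genes, ordered by how many they hold and by their summed counts, with the cells of 3 or more genes above the white line; colour is log10 of counts plus 1, and the numbers are counts of the 5 genes. Klk7 and Cst6 are coloured in all 12 upper cells, Flg in only 4 of them, and 1 cell (1w pw1 replicate 2, A5) stands apart with high Krt10 and Krt2 and no Krt79.

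Pairs of genes shared cells to different degrees. All 6 cells with Flg2 also had Asprv1 and Crct1, and 5 of them had Rptn. Rptn and Asprv1 were together in 12 cells, 63.2% of the Rptn-positive and 19.4% of the Asprv1-positive cells, where 1.69 would be found if the genes were unrelated. Rptn and Crct1 were together in 12 cells (0.628 if unrelated) and Asprv1 and Crct1 in 16 (2.05 if unrelated). After thinning to 20000 counts, these 3 pairs were found in 10, 6 and 8 cells. The numbers for unrelated genes are for cells before thinning and make no allowance for differences in depth between cells. Flg was with Asprv1 in 6 cells (2.58 if unrelated), with Rptn in 5 (0.792), with Crct1 in 5 (0.958) and with Flg2 in 2 (0.25), and 21 of its 29 cells (72.4%) had none of the other 4 genes. The most Flg counts in such a lone cell was 129. Asprv1 was likewise alone in 43 of its 62 cells, at no more than 89 counts, while Rptn and Crct1 were alone in 5 cells each and Flg2 in 0. After thinning, Flg was with Asprv1 in 3 cells, with Rptn in 3, with Crct1 in 4 and with Flg2 in 2.

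As a description over all cells, Pearson's r of log2(CPM + 1) was 0.75 for Rptn and Crct1, 0.74 for Flg2 and Crct1, 0.71 for Flg2 and Rptn, 0.65 for Rptn and Asprv1, 0.62 for Asprv1 and Crct1 and 0.48 for Flg2 and Asprv1. The pairs with Flg were at 0.43 with Rptn, 0.40 with Crct1, 0.37 with Flg2 and 0.26 with Asprv1. They were the lowest on this scale but not on others: thinned to 20000 counts, Flg and Crct1 (0.47) were above Flg2 and Asprv1 (0.45). Cells of a plate share their library and counts are sparse, so these values rest on the few cells above and carry no test. After each plate's mean was subtracted they moved by less than 0.01. The plates differed, however. Over the pairs whose genes both had counts on the plate, the median r was 0.87, 0.69, 0.54 and 0.65 on the replicate 1 plates in the order of time points. On the replicate 2 plates it was -0.04, 0.31, -0.02 and 0.32. These medians do not cover the same pairs, since Flg2 was at 0 counts on all replicate 2 plates and on both plates of 1w pw2. On the replicate 2 plate of 0w, Rptn and Crct1 were at 0 too, so the value there is that of Flg and Asprv1 alone.

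**Figure D4:**
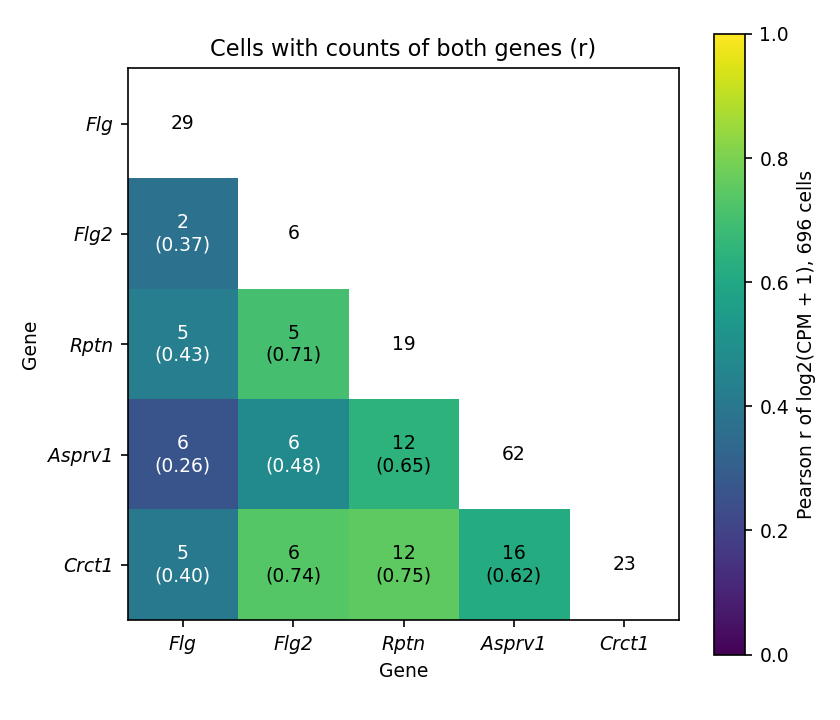
Number of cells with counts of both genes of each pair, with Pearson's r of log2(CPM + 1) over 696 cells in brackets and as colour; the diagonal gives the number of cells with a count of that gene. The Flg column is the darkest (0.26 to 0.43), and Crct1 with Rptn (12 cells, 0.75) and with Flg2 (6 cells, 0.74) are the brightest.

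The genes whose pattern over cells was most like each of the 5 were found by the same correlation within plates, among genes with a count in at least 20 cells. For Flg they were Cnfn, a cornified envelope gene (r = 0.48), Lor, the loricrin of that envelope (0.44), Lypd5 (0.42), Crct1 (0.41) and Trex2 (0.39). For Flg2 they were Crct1 (0.73), Atg9b (0.63), Lor (0.62), Cpa4 (0.60) and Tmprss11e, a transmembrane serine protease (0.50). Rptn was most like Sprr4, a small proline-rich envelope gene (0.76), followed by Crct1 (0.75), Cpa4 (0.71), Tmprss11e (0.70) and Asprv1 (0.64). For Asprv1 the nearest were Sprr4 (0.67), Cdsn, the corneodesmosin of cornified cell junctions (0.65), the keratin Krt23 (0.63), Crct1 (0.62) and Cpa4 (0.57), and for Crct1 they were Atg9b (0.70), Cpa4 (0.69), Lor (0.64), Asprv1 (0.62) and Sprr4 (0.61). Crct1 was thus among the 5 nearest of each of the other 4 genes, of the genes that met the limit of 20 cells. Rptn (19 cells) and Flg2 (6 cells) did not meet it and could not be listed as neighbours. By the same correlation within plates, Crct1 was at 0.75 with Rptn and 0.73 with Flg2. Rptn was at 0.71 with Flg2, 0.64 with Asprv1 and 0.43 with Flg.

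What else the cells expressed was compared between the 12 cells with 3 or more of the genes and the 600 with none, as a description with no test, since the classes were cut from the counts after they were seen. Of the 9 filaggrin processing genes in the table besides Asprv1, 7 had counts in a larger share of the 12 cells than of the 600 (8 after thinning), the exceptions being Capn1 and Furin. Klk7, a kallikrein that cuts cell junctions at shedding, had counts in 12 of the 12 cells (100%) with a median of 4643 CPM, against 18% and a median of 0. Its partner Klk5 was in 100% against 19.8%, and their inhibitor Spink5 in 100% (median 4210 CPM) against 48.8%. Casp14, a caspase that degrades filaggrin, was in 58.3% against 16.2%.

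Of the 12 cornified envelope and cross-linking genes in the table besides Crct1, 11 had counts in a larger share of the 12 cells than of the 600 (10 after thinning), the exception being Tgm3. Cdsn was in 100% of the 12 cells (median 2233 CPM) against 5.3%, the transglutaminase Tgm1 in 83.3% against 6.3%, Cnfn in 75.0% against 4.0%, Lor in 58.3% against 2.2%, and Kprp in 58.3% against 0.2%. Hrnr, a further S100 fused-type gene, was in 6 of the 12 cells against 0.8%. All 19 barrier lipid genes had the larger share in the 12 cells, also after thinning. Of these, Elovl4, which makes the very long fatty acids of barrier ceramides, was in 100% against 33.0%, and the lipase Lipk in 75.0% against 2.5%. The transcription factor Prdm1 (Blimp1), known from granular and sebaceous duct cells, was in 91.7% against 7.7%.

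The keratins of these cells were uneven. Krt10 had counts in all 12 cells (median 4246 CPM, against 200 CPM), but its usual partner Krt1 was in 16.7% of them against 42.3% of the cells with none of the genes, and Krt2, the keratin of the upper epidermis, in 25.0% against 19.3%. Markers of the follicle duct were frequent. Krt79 was in 91.7% (median 3368 CPM) against 48.3%, Cst6 in 100% (median 78008 CPM) against 67.3% (median 32.9 CPM), Defb6 in 83.3% (median 5527 CPM) against 47.5%, and Gata6 in 66.7% against 30.8%. Krt17 was in 100% against 64.3%. Of the 4 wound keratinocyte genes, Krt17 among them, 3 had the larger share in the 12 cells (2 after thinning), the exception being Krt6b. Plet1, a junctional zone marker, was in 100% against 47.5%. Of the 3 junctional zone genes 2 had the larger share, the exception being Lgr6. Basal genes were low: Trp63 was in 25.0% against 88.5%, Col17a1 in 25.0% against 70.0%, and Krt15 of the bulge in 8.3% against 48.8%. Of the 5 genes of the basal list 0 had the larger share in the 12 cells. Of the 4 bulge genes 1 did, Cd34, and 2 did after thinning. Of 5 sebaceous gland genes 2 had the larger share in the 12 cells, with the sebocyte factor Pparg at 0, and of 3 tail scale genes 1 did, Krt36 (2 of the 12 cells), with Krt84 at 0.

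The 12 cells were deeper, with a median of 181118 counts against 122338, and had a lower mitochondrial load, 8.19% against 21.4%. Thinned to 20000 counts, Klk7 was in 100% against 15%, Cdsn in 91.7% against 2.5% and Krt79 in 83.3% against 43.3%. Of the 12 cells, 7 had counts of all 4 duct markers (Krt79, Gata6, Cst6 and Defb6) and 5 did not. B8 and H8 of the 0w replicate 1 plate had only 1 and 2 counts of Krt79. The 1 cell with 0 counts of Krt79 was A5 of the 1w pw1 replicate 2 plate. That cell had 67509 counts of Krt10, 55215 of Krt2 and 841 of Krt1, next to 68 of Flg and 8 of Asprv1. Its Flg came with the keratins of the surface epidermis.

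Cells with Flg as a whole were less distinct: Krt79 was in 58.6% of the 29 (median 20.6 CPM), Cst6 had a median of 48.9 CPM, and Klk7 was in 41.4%. The 62 Asprv1-positive cells leaned to the duct, with Krt79 in 82.3% (median 2930 CPM), a Cst6 median of 27368 CPM and Klk7 in 75.8%.

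**Figure D5:**
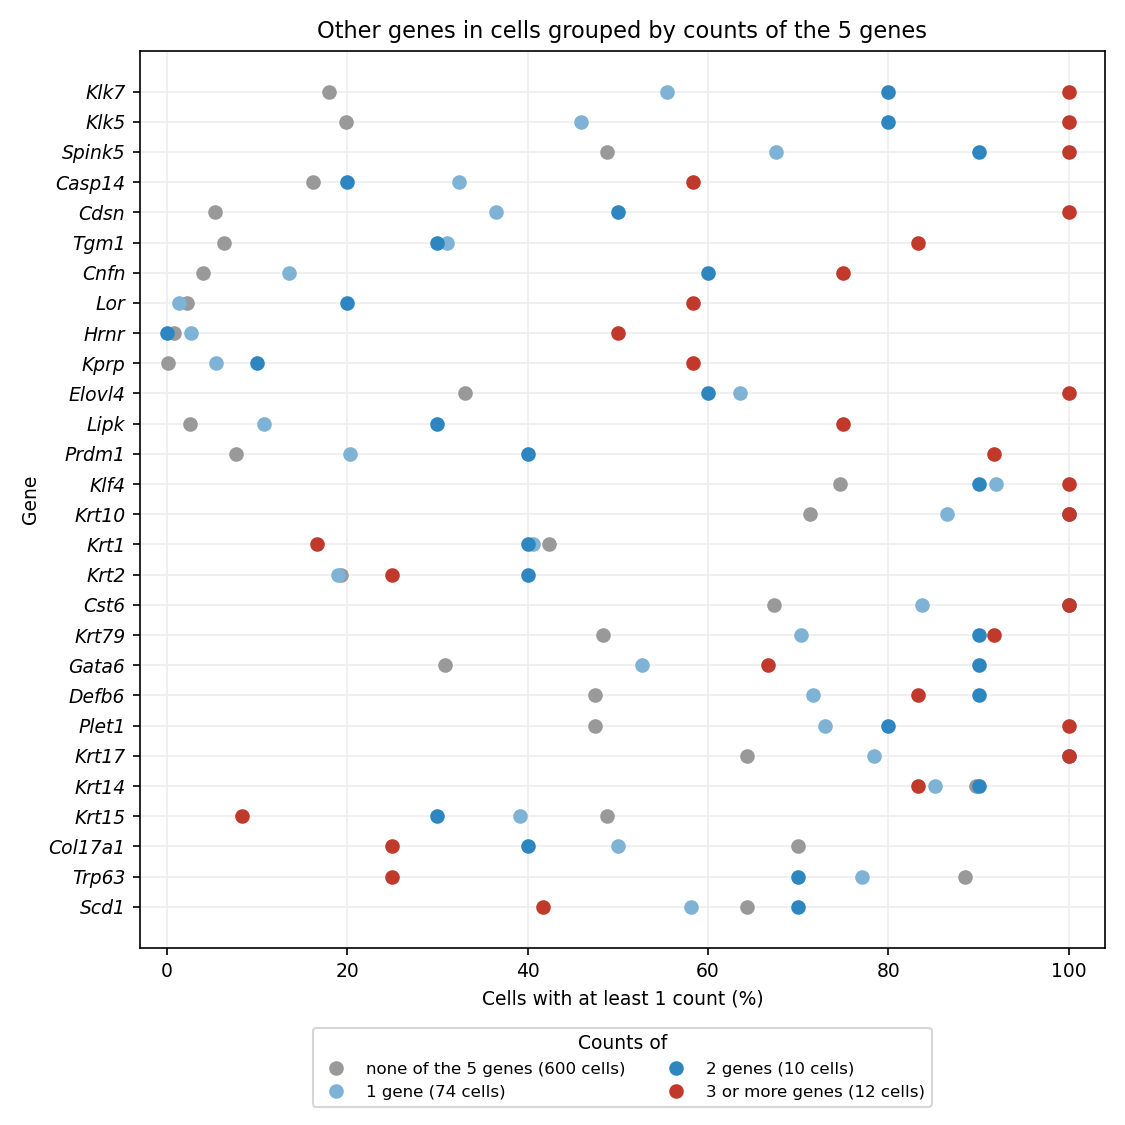
Share of cells with at least 1 count of 28 other genes, for cells with counts of none (grey), 1 (light blue), 2 (dark blue) and 3 or more (red) of the 5 genes. Klk7, Klk5, Spink5, Cdsn, Elovl4, Klf4, Krt10, Cst6, Plet1 and Krt17 reach 100% in the 12 red cells, whereas Krt15, Krt1, Col17a1 and Trp63 are at or below 25%.

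All 4 duct markers (Krt79, Gata6, Cst6 and Defb6) had counts in 184 cells (26.4%), and 49 of these (26.6%) had at least 1 of the 5 genes, against 47 of the 512 other cells (9.18%). Asprv1 was in 19.6% of the 184 against 5.08% of the others, Crct1 in 8.15% against 1.56% and Rptn in 6.52% against 1.37%, whereas Flg was in 4.35% against 4.10%. Median depth was 165488 counts in the 184 cells and 121507 in the others. Cells with all 4 markers made up 16.2%, 32.7%, 26.2% and 31.1% of the cells in the order of time points. This definition of a duct cell was chosen after the data were seen, and no difference was tested. Within them, at least 1 of the 5 genes was found on 30.8% and 0% of the cells of the 0w plates, 18.5% and 25.0% at 1w pw1, 29.6% and 33.3% at 8w pw1, and 37.9% and 30.8% at 1w pw2. The summed level of the 4 markers, in CPM of the plate total, was 8153 and 13263 on the 0w plates and between 12833 and 32477 on the 6 others. Its part in the plate levels of the 5 genes was not tested.

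The other genes of cornification are given by list, with the 5 genes left out. Of the filaggrin processing genes 9 were tested, and their median log2 differences from 0w were 0.55 (1w pw1), 1.12 (8w pw1) and 1.23 (1w pw2), where the median over all genes was -0.04, 0.07 and 0.05. Casp14 rose at 1w pw1, from 2.65 and 2.37 CPM to 35.9 and 49.2 CPM (log2 difference 4.08, adjusted p = 0.0370, edgeR), a call kept in 8 of 16 alternative settings, with differences of 3.11 to 4.28. Hal, which turns histidine from broken-down filaggrin into urocanic acid, rose at both healing times, with log2 differences of 5.89 and 6.35 (adjusted p = 0.0349 and 0.0376), calls kept in 10 and 7 of the 16 settings. The lowest of the list was Furin, a protease that cuts profilaggrin, at -0.36 and -0.73.

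Of the cornified envelope and cross-linking genes 12 were tested, with medians of 1.74, 1.55 and 2.97 at the same 3 comparisons. The serpin Serpinb12 stood at 1.66 and 1.46 CPM on the 0w plates and rose to 264 and 647 CPM at 1w pw1 (8.18, adjusted p = 0.0164) and to 106 and 493 CPM at 1w pw2 (7.58, adjusted p = 0.0309). The lowest were Kprp at 1w pw1 (-2.36) and Lor at 1w pw2 (-1.11), which did not pass the test. The spinous layer genes, 14 of 14 tested, had medians of 2.80, 0.80 and 1.99. In this list Krt2 (10.13, adjusted p = 0.0209), Krt10 (4.16, adjusted p = 0.0276) and the calmodulin-like Calm4 (4.11, adjusted p = 0.0127) rose at 1w pw1, Krt2 (9.95, adjusted p = 0.0309) and Calm4 (3.35, adjusted p = 0.0273) were also higher than 0w at 1w pw2, and Calm4 fell from 1w pw1 to 8w pw1 by 3.54 (adjusted p = 0.0286). That last call was kept in 9 of the 16 settings and was lost without any one plate of the 2 time points, at differences of -3.91 to -3.13. The lowest were Sbsn at 1w pw1 (0.73) and Krt77 at 1w pw2 (1.20). Each of the calls against 0w in these lists was lost when either plate of 0w was left out, and all but that of Serpinb12 at 1w pw1 under the stricter cell filter, while no log2 difference changed direction. Calm4 at 1w pw1 was at 4.10 and 4.08 without a plate of 0w, and Serpinb12 at 8.25 and 8.08. The others were kept in 9 (Serpinb12 at 1w pw2) to 14 (Serpinb12 at 1w pw1) of the 16 settings.

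The other lists had 0 genes called by edgeR. The barrier lipid enzymes and transporters had 19 of 19 log2 differences above 0 at both healing times, 14 of them with an unadjusted p below 0.05 each time (over all genes 11.5% and 12.6%), and medians of 2.08 (1w pw1) and 1.95 (1w pw2), against 0.52 for 8w pw1. The lowest was Sptlc3, at 1.14 and 0.37. The highest fitted values were those of Degs2 at 1w pw1 and Alox12b at 1w pw2, which had 0 counts on both plates of 0w, so that only bounds can be given, with 3 counts over the plates of 0w as the limit. Degs2 was at 1.31 and 3.16 CPM at 1w pw1, a mean at least 28.2-fold higher. Alox12b was at 15.1 and 0.216 CPM at 1w pw2, and its bound of at least 96.6-fold for the mean rests on the replicate 1 plate. With genes at 0 in 0w set to such bounds, the medians at both healing times were the same. The late differentiation transcription factors (14 tested, 5 with an unadjusted p below 0.05 at each of the 2 times, against the same 11.5% and 12.6% of all genes) had medians of 1.24 and 0.89, with Trp63 lowest (-0.22 and -0.72). Only 2 S100 fused-type genes besides the filaggrins and Rptn were tested: Tchh differed from 0w by 1.35 and 0.38 and Hrnr by 0.97 and -2.94 at the 2 healing times, with 0 unadjusted p below 0.05. Hrnr, like Flg2, was low on 1 plate of 0w and high on the other, at 62.7 and 0 CPM. Of the late cornified envelope family 2 were tested, Lce3c, at 0.64 and 5.64 (11 and 0 counts at 0w, 14 and 0 at 1w pw1, 417 and 2 at 1w pw2, so that the latter value rests on 1 plate), and Lce1f, which had 0 counts on both plates of 0w and 19 and 0 at 1w pw1 and 9 and 2 at 1w pw2, also with 0 unadjusted p below 0.05.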

How the data were processed

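Smart-seq2 reads (single-end, 75 bases, no molecular identifiers) were mapped by the authors to the Ensembl 101 transcriptome with Salmon 0.13.1. The values the authors deposited are estimated counts per gene and cell, not normalised. How transcripts were summed to genes was not given in the sources used here. Of the values 96.6% are whole. All 696 cells pass the study's filter of 1000 genes and 50% mitochondrial counts.

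The cells of each plate were added up gene by gene, rounded and tested with edgeR 4.0.16 in R 4.3.3 (quasi-likelihood, all 8 plates in a single fit, TMM, default low-count filter, Benjamini-Hochberg over 13853 genes). A gene was called at an adjusted p below 0.05 and a change over 2-fold. Residual degrees of freedom were 4 and the biological coefficient of variation 0.61. The code was tested on simulated data. Cell shares and correlations were computed in Python 3.11.15 with pandas 2.3.3. Same-numbered plates deviated together from their group means, with correlations of 0.121 to 0.213 in all 6 pairs of time points, so the fit with the replicate number as a block was set beside the calls and directions it changed; the labels do not say what the number marks.

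The 5 genes, the gene lists and the tests were chosen with earlier results of these data known. Named genes are the 5, every called gene of a pathway list, the highest and lowest of each list at both healing times (with an item not reported here), the 5 genes most like each of the 5, and marker genes; genes in the comparison of cells were picked after their values were seen. Besides the pathway lists, marker lists covered basal, bulge, junctional zone, duct, sebaceous, scale, wound keratinocyte, melanocyte, immune, fibroblast and endothelial genes. Alternatives were DESeq2 1.42.0, totals without TMM, every cell scaled equally, no low-count filter, a stricter cell filter (2000 genes, 20% mitochondrial counts, 313 cells), only the plates compared, the block, each plate left out, and the richest cell of each plate left out. Coordinates are GRCm38 from GENCODE, and promoters RefSeq.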

Additional observations from a re-analysis of the deposited data

How the results depend on the processing

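Leaving out the cell with the richest counts of the 5 genes on each plate (8 cells, an alternative added after seeing the data) turned the log2 difference of Rptn to -7.92, Asprv1 to -1.06 and Crct1 to -2.13 in 1w pw1 against 0w, Flg to 0.30 and Asprv1 to -1.54 in 8w pw1 against 0w, Rptn to -1.87 in 1w pw2 against 0w, Rptn to 4.02 in 8w pw1 against 1w pw1, Flg to -0.19 and Rptn to 6.05 in 1w pw2 against 1w pw1, Crct1 to -2.59 in 1w pw2 against 8w pw1, and Flg to -0.49 and Crct1 to -0.46 in the difference between the healings. With every cell scaled equally, 1w pw1 against 0w gave Rptn -1.22, Asprv1 -1.69 and Crct1 -2.05, 8w pw1 against 0w Asprv1 -0.88, 1w pw2 against 0w Rptn -1.23, and 8w pw1 against 1w pw1 Asprv1 0.81. Library totals without TMM gave Crct1 -0.28 in 1w pw1 against 0w, Asprv1 0.19 in 8w pw1 against 1w pw1 and Rptn 0.078 in 1w pw2 against 1w pw1. The stricter cell filter gave Crct1 -0.16 in 1w pw1 against 0w, Rptn -0.16 in 1w pw2 against 0w and Asprv1 0.12 in 8w pw1 against 1w pw1. None of these values passed the test, and the cause was not tested beyond the cells left out.

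With the replicate block, Flg was 1.88 in 8w pw1 against 0w, Crct1 0.11 in 1w pw2 against 0w, Rptn 3.48 in 1w pw2 against 1w pw1 and Flg -0.87 in the difference between the healings, none of them called. The block called 1 of the 5 genes in 1w pw2 against 0w (Flg2, against 0 counts at 1w pw2) and changed no other call of the 5. DESeq2 called 1 gene, Flg2, in each of the 3 comparisons of 1w pw2 with another time point, where it called 4.97% (0w), 0.296% (1w pw1) and 2.03% (8w pw1) of all genes.

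Leaving out each plate in turn gave log2 differences from 0w at 1w pw1 of -1.54 to 5.94 for Flg, -12.30 to 10.62 for Flg2, -4.36 to 14.41 for Rptn, -0.30 to 5.68 for Asprv1 and -3.81 to 10.98 for Crct1. At 8w pw1 they were -3.83 to 2.07, -12.28 to 4.22, -9.53 to 8.99, -2.60 to 5.37 and -5.60 to 8.11 in the same order. At 1w pw2 they were -3.59 to 7.67 for Flg, -0.63 to 14.11 for Rptn and -4.22 to 9.55 for Crct1, and the Asprv1 difference stayed above 0. From 1w pw1 to 8w pw1 they were -6.24 to 0.054 for Flg, -10.69 to 4.27 for Flg2, -3.48 to 0.84 for Asprv1 and -5.87 to 1.18 for Crct1, and from 1w pw1 to 1w pw2 -6.00 to 5.61 for Flg, -1.29 to 4.74 for Rptn and -4.49 to 2.58 for Crct1. From 8w pw1 to 1w pw2 they were -2.13 to 7.96 for Flg and -1.62 to 4.43 for Crct1. The difference between the healings ran from -4.54 to 7.10 for Flg, -9.30 to 9.46 for Rptn, -3.07 to 4.90 for Asprv1 and -9.55 to 5.21 for Crct1. Where the plates left had 0 counts in a group, as for Rptn, Flg2 and Crct1 without the replicate 1 plate of 0w, these values depend on the prior count and are no measured folds. For Flg2, 5 such fits gave no value. Both groups of a comparison were then at 0 counts, or, in the difference between the healings, 1w pw2 and the time point of the plate left out were.

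The mean share of cells with any of the 5 genes was 3.37%, 6.61%, 4.67% and 7.92% in the order of time points when at least 5 counts were asked for, 4.72%, 6.97%, 5.69% and 9.04% after thinning, and 8.11%, 19.0%, 15.7% and 22.6% under the stricter cell filter. The mean of 1w pw2 was the highest under all 3 settings, but its plates were not always above all others. Under the stricter filter they were at 24.1% and 21.1%, against 22.2% on the replicate 1 plate of 8w pw1. After thinning they were at 8.43% and 9.64%, against 8.64% on that plate. Each call of a pathway gene was repeated in 16 alternative settings. Added over all calls and settings, a call was lost 62 times, and none turned in direction. The losses per call ran from 2 of the 16 settings (Serpinb12 at 1w pw1) to 9 (Hal at 1w pw2). Genes called over the whole table in 1w pw1 against 0w numbered 73 by edgeR, 236 with the block and 723 by DESeq2, and in 1w pw2 against 0w 37, 96 and 688. With 2 plates a group and 4 residual degrees of freedom, only large differences could be called.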

Other observations

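Other marker lists give the makeup of the plates, as summed levels in CPM of the plate total, with no test. Wound keratinocyte genes (Krt6a, Krt6b, Krt16 and Krt17) ran from 408 to 1173 on the 0w plates, 7378 to 11818 at 1w pw1, 1219 to 1582 at 8w pw1 and 4634 to 5133 at 1w pw2. Tail scale genes (Krt36, Krt84 and Mt4) ran from 6.17 to 21.4, 316 to 478, 91.9 to 265 and 491 to 2005. Bulge genes (Cd34, Lgr5, Postn and Krt15) were lowest at 1w pw1, at 249 to 413, against 1105 to 2334 at 0w. Basal genes ran from 1596 to 4596 over the 8 plates, junctional zone genes from 116 to 391 and sebaceous genes from 456 to 7301. Fibroblast genes (3 in the table) ran from 20.001 to 28.981 at 0w, 0.304 to 0.740 at 1w pw1, 2.60 to 2.63 at 8w pw1 and 0.563 to 15.6 at 1w pw2. Immune genes (3 in the table) ran from 0.214 to 0.241, 0.159 to 0.253, 0.895 to 7.24 and 3.24 to 31.8 in the same order, levels in the range of those of the 5 genes. Melanocyte genes (2 in the table) stayed at or below 7.65, and the endothelial pair ran from 94.5 to 1812 with Kdr near 0. In the 12 cells with 3 or more of the 5 genes, 0 of the 3 fibroblast and 0 of the 3 immune genes had a larger share than in the 600 cells with none. Of the 2 melanocyte genes 1 had a larger share (Pmel), and of the 2 endothelial genes 1 did (Pecam1), or 0 after thinning.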
